A study of Mus musculus with 8 samples.

Results

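A group of 9 genes of neural tissue was followed on all 8 bead arrays of a mouse study of germ cell nuclear factor (Gcnf). Npy, Slc1a3 and Slitrk5 were selected on their high signal in epiblast stem cells (EpiSCs), and Nes, Sox1, Pax6, Zic1, Fabp7 and Ncam1 as markers of neural cells. They have 12 of the 25697 probes on the array, with 2 probes each for Slitrk5, Nes and Ncam1 and 1 for every other gene. Of these 12 probes, 7 were detected on at least 1 array, against 13151 of all probes, and a probe is called detected where its detection p is under 0.01. Of the 9 genes, 4 were detected on both EpiSC arrays (Npy, Slc1a3, Slitrk5 and Nes), 1 on a single array of other cells (Zic1), and 4 on no array (Sox1, Pax6, Fabp7 and Ncam1).

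The arrays held wt embryonic stem cells (ESCs), Gcnf-deficient ESCs, primordial germ cells (PGCs) derived from ESCs of each genotype and collected on days 12 and 15 of differentiation, with 1 array per condition, and EpiSCs with 2 arrays. The labels record no Gcnf knockout in EpiSCs and give all 8 arrays the strain C57BL/6. The ESC lines carried an Oct4-GFP reporter without the proximal enhancer and were grown on mouse fibroblast feeders with LIF, whereas the PGCs were derived without feeders and sorted for GFP. Per the methods, wt ESC lines of both sexes and a female Gcnf-deficient line were in use. Which of them was put on each array, and where the EpiSCs came from, was not found in the sources read here, and genotype and line cannot be told apart. The labels call every array PGC, so the conditions were read from the sample titles.

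EpiSCs are pluripotent cells of the primed state, which resembles the epiblast of the implanted embryo, whereas mouse ESCs kept with LIF are closer to the naive state of the blastocyst. Primed cells stand near the point at which the epiblast is assigned to neural and other fates. Gcnf, the product of Nr6a1, is an orphan nuclear receptor that binds direct repeats of the sequence AGGTCA without spacing and represses Oct4 as cells leave pluripotency. The neural genes described here act at different points of that path: Sox1, Pax6 and Zic1 encode transcription factors of the early neural plate and its progenitors, Nes, Fabp7 and Slc1a3 mark radial glia, Ncam1 encodes an adhesion molecule of neurons, Slitrk5 a transmembrane protein of neurites and synapses, and Npy a peptide transmitter.

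The probe of Nr6a1, the targeted gene, was detected on all 8 arrays, at 9.64 in wt and 11.03 in Gcnf-deficient ESCs, 10.38 and 9.94 on day 12, 9.83 and 10.05 on day 15, and 12.46 and 12.31 in EpiSCs. Whether it lies in the deleted part is not stated in the sources read, so it does not check the genotype labels, and Gcnf-deficient is used here as a label. The EpiSC label was compared with marker lists. The primed epiblast list gave 8 of 11 genes detected on each EpiSC array. Wt day-12 PGCs also gave 8, and each other array 4 to 6. The summed linear signal of the list was 51700 and 50512 in EpiSCs, against 2956 to 13263 on the other 6 arrays. Dnmt3b, at 15.19 and 15.14 in EpiSCs and 10.50 to 13.06 elsewhere, was the brightest gene of the list and weighs most in the EpiSC sums. The naive list gave 2 and 1 of 11 genes detected in EpiSCs and 9 or 10 on each other array. Across the 8 arrays 38.7% to 43.9% of probes were detected, and the lowest detected signal lay between 5.38 (wt day-15 PGCs) and 6.03 (EpiSC replicate 2) in normalized log2. The EpiSC arrays differed by more than 4-fold at 0 of the 9638 probes detected on both, with an SD of the difference of 0.26 and a 95th percentile of its size of 0.53. No other condition has a replicate, and nothing says that the 2 EpiSC arrays came from separate cultures, so this spread may be technical.

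The start regions of the 3 genes taken for their EpiSC signal are shown because they differ in base composition. The sequences are those of RefSeq (GRCm38.p6), from 250 bases before to 50 bases after the start site, in the 5′ to 3′ direction of the gene, and capitals mark every CG dinucleotide. The window of Npy is chr6:49822460-49822759 on the plus strand, that of Slitrk5 chr14:111675777-111676076 on the plus strand, and that of Slc1a3 chr15:8710758-8711057 on the minus strand.
Npy: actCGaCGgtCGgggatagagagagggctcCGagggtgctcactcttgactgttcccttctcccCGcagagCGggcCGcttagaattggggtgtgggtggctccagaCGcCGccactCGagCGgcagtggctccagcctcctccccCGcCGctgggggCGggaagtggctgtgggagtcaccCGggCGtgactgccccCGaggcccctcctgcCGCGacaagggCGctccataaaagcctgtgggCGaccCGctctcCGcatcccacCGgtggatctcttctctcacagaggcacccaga
Slitrk5: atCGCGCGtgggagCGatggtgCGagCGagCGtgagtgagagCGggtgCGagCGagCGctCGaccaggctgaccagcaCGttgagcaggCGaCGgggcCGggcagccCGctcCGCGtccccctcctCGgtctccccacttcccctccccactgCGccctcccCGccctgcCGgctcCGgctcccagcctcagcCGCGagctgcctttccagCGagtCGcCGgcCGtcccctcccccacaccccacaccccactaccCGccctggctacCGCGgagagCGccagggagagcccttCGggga
Slc1a3: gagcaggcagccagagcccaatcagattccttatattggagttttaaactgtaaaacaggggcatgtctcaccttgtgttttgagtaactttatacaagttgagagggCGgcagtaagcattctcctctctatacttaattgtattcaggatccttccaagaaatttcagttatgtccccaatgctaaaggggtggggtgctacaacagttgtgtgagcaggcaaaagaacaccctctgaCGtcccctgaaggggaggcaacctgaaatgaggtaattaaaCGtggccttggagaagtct
The Npy window held 24 CG dinucleotides at 68% G and C, the Slitrk5 window 35 at 74.3%, and the Slc1a3 window 3 at 45.3%. The medians over all 32851 promoter windows were 7 CG dinucleotides and 52.7% G and C. Npy and Slitrk5, detected in EpiSCs alone, thus had CG-rich starts, and so did genes that were not detected in EpiSCs: Sox1 held 37 CG dinucleotides and Zic1 31. Nes held 18, the windows of Pax6 18 and 16, and Fabp7 6. No entry was used for Ncam1. The windows were searched on both strands for the repeat of 2 AGGTCA units joined without spacing, for the longer half-site TCAAGGTCA, for AGGTCA, which lies inside both, and for ATGCAAAT, the octamer that Oct4 binds. Neither the repeat nor the longer half-site was found in a window of the 8 genes, and they occur in 0.00609% and 0.423% of all windows. AGGTCA (16.3% of all windows) was found once, in Fabp7 on the opposite strand, and ATGCAAAT (1.74% of all windows) once, in Sox1. A match or its absence describes these windows only.

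**Figure D1:**
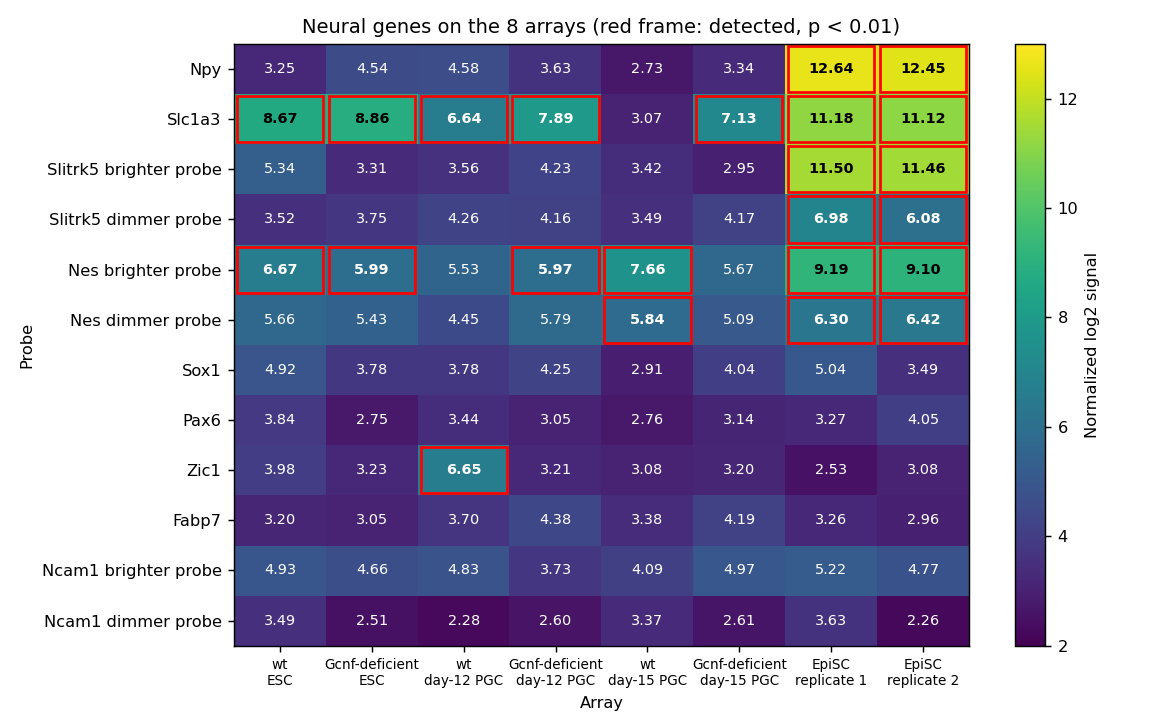
Normalized log2 signal of the 12 probes of the 9 neural genes (rows) on the 8 arrays (columns), with red frames and bold numbers where the probe was detected. Npy and both Slitrk5 probes are framed on the 2 EpiSC arrays alone, Slc1a3 on 7 arrays, and the probes of Sox1, Pax6, Fabp7 and Ncam1 on none.

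Npy gave normalized log2 signals of 12.64 and 12.45 in EpiSC replicates 1 and 2. It gave 3.25 in wt ESCs, 4.54 in Gcnf-deficient ESCs, 4.58 in wt day-12 PGCs, 3.63 in Gcnf-deficient day-12 PGCs, 2.73 in wt day-15 PGCs and 3.34 in Gcnf-deficient day-15 PGCs, none of which was detected. The EpiSC arrays thus stood far above the rest with no overlap, and 98.3% and 97.9% of all probes on these 2 arrays were dimmer. Where a probe was not detected, the fold is a lower bound, with the dimmest detected probe of that array as the floor: EpiSCs were at least 99.2-fold above Gcnf-deficient day-12 PGCs and at least 143-fold above wt day-15 PGCs, with the other 4 arrays between. These bounds hold for the RMA background model. Of the 9638 probes detected on both EpiSC arrays, Npy had the largest excess of the EpiSC mean over the highest of the other 6 arrays, 7.96 in log2, which was 5.35 with no background correction and 5.90 with an offset of 50. This contrast chose the gene, so its values are a description without a test.

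Most other genes of peptide signalling were not detected. Of 16 genes with a probe on the list of neuropeptides, their processing enzymes and Npy receptors, 13 were detected on no array. The receptors Npy1r, Npy2r and Npy5r were among them. Of all 16593 genes with a probe, 7620 were detected on no array. Pam, which encodes the enzyme that amidates peptide ends, was detected on both EpiSC arrays at 6.48 and 6.63, within the 4.65 to 6.54 of the other 6 arrays or just above it. Pdyn, which encodes the opioid precursor prodynorphin, was detected on 6 arrays, with 7.84 in Gcnf-deficient day-12 PGCs and 6.22 and 5.36 in EpiSCs.

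Slitrk5, a leucine-rich repeat protein, showed the same pattern with both of its probes. The brighter probe gave 11.50 and 11.46 in EpiSCs. It gave 5.34 in wt ESCs, 3.31 in Gcnf-deficient ESCs, 3.56 and 4.23 in wt and Gcnf-deficient day-12 PGCs, and 3.42 and 2.95 in wt and Gcnf-deficient day-15 PGCs, without detection on any of the 6. EpiSCs were at least 47.4-fold to at least 68.6-fold above these arrays, and the excess over the highest of them, 6.14 in log2, was second of the 9638. It was 4.15 with no background correction and 4.62 with an offset of 50, so the size of these folds depends on the background treatment. The dimmer probe was detected on the EpiSC arrays alone, at 6.98 and 6.08. There its bounds were lower, at least 1.53-fold to at least 2.22-fold, and its EpiSC arrays differed by 0.90, above the 95th percentile of such differences (0.53). The other 5 genes of the Slitrk family were detected on no array.

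Slc1a3, the glutamate transporter GLAST of radial glia and astrocytes, was high in EpiSCs and present in most other cells. Its log2 signal was 11.18 and 11.12 in EpiSCs, 8.67 in wt ESCs, 8.86 in Gcnf-deficient ESCs, 6.64 in wt day-12 PGCs, 7.89 in Gcnf-deficient day-12 PGCs and 7.13 in Gcnf-deficient day-15 PGCs. Wt day-15 PGCs, at 3.07, were the single array without detection. EpiSCs were 5.57-fold above wt ESCs, 4.88-fold above Gcnf-deficient ESCs, 22.8-fold above wt day-12 PGCs and 9.57-fold above Gcnf-deficient day-12 PGCs. Against day-15 PGCs they were 16.2-fold above the Gcnf-deficient and at least 54.5-fold above the wt array. In the order of levels, the ESCs of both genotypes differed by less than the 0.53 of the EpiSC pair, as did Gcnf-deficient day-15 and wt day-12 PGCs, and each other step between neighbours was larger.

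Among the relatives of Slc1a3, Slc1a5, which carries neutral amino acids, was detected on the EpiSC arrays alone, at 7.66 and 6.79. Slc1a4, another neutral amino acid carrier, was detected on all 8 arrays, from 7.62 to 10.05, with EpiSCs at 9.49 and 9.46. The neuronal and epithelial glutamate transporter Slc1a1 went the other way, with 6.53 to 7.63 in the 4 PGC samples and no detection in ESCs or EpiSCs.

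Nes, which encodes the intermediate filament nestin, was brightest in EpiSCs without standing 4-fold above every other array. Its brighter probe gave 9.19 and 9.10 in EpiSCs and 7.66 in wt day-15 PGCs. It gave 6.67 in wt ESCs, 5.99 in Gcnf-deficient ESCs and 5.97 in Gcnf-deficient day-12 PGCs, and was not detected in wt day-12 PGCs (5.53) or Gcnf-deficient day-15 PGCs (5.67). EpiSCs were 2.79-fold above wt day-15 PGCs and 5.55-fold above wt ESCs. The dimmer probe was detected at 6.30 and 6.42 in EpiSCs and at 5.84 in wt day-15 PGCs. Gcnf-deficient day-12 PGCs lay close behind at 5.79 without detection, so this probe does not set wt day-15 PGCs apart. The lowest detected signal was 5.38 on the wt day-15 array and 5.91 on the Gcnf-deficient day-12 array. With the dimmer probe the step from EpiSCs to wt day-15 PGCs, 0.52, was smaller than the 0.53 of the EpiSC pair.

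The transcription factors and the remaining markers were not detected in EpiSCs. Zic1, a zinc finger factor of the neural plate border and dorsal neural tube, was detected in wt day-12 PGCs alone, at 6.65 with a detection p of 0.00125, and lay between 2.53 and 3.98 elsewhere. Wt day-12 PGCs were at least 1.67-fold above Gcnf-deficient day-12 PGCs. The Y-linked gene Eif2s3y was detected on that same array alone, at 11.64, and any link of the cell line to the Zic1 signal was not tested. Sox1 lay between 2.91 and 5.04 with a smallest detection p of 0.0589, Pax6 between 2.75 and 4.05 with 0.199, and Fabp7 between 2.96 and 4.38 with 0.128. The probes of Ncam1 lay between 2.26 and 5.22, with 0.0451 as the smallest detection p. For these 4 genes a level could not be measured on these arrays, and no fold is given.

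**Figure D2:**
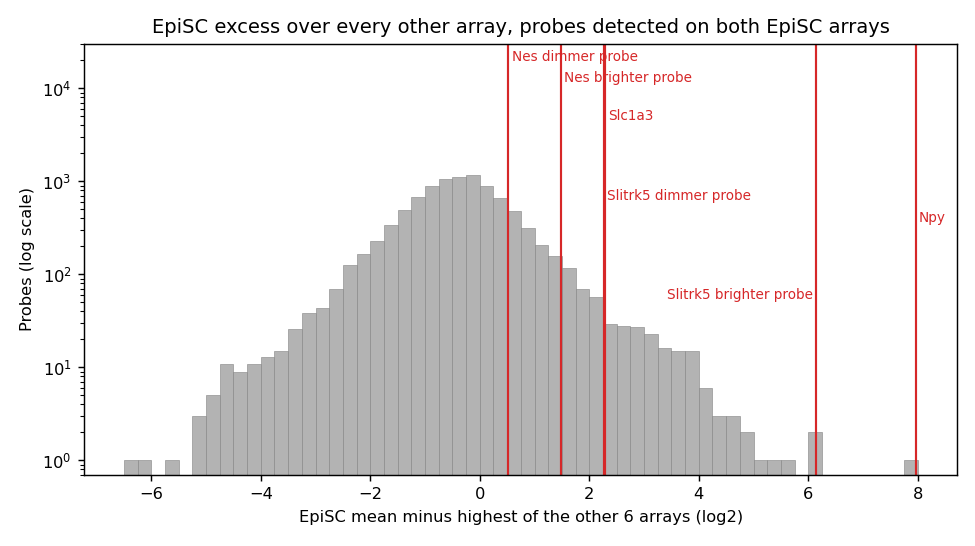
Number of probes (log scale) by the EpiSC mean minus the highest of the other 6 arrays in log2, over the 9638 probes detected on both EpiSC arrays, with lines for the 6 probes of Npy, Slitrk5, Slc1a3 and Nes among them. Npy at 7.96 and the brighter Slitrk5 probe at 6.14 lie at the right end, Slc1a3 and the dimmer Slitrk5 probe lie at 2.29 and 2.26, and the Nes probes at 1.48 and 0.52.

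Of the 9 genes, 3 (Npy, Slc1a3 and Slitrk5) were over 4-fold higher in EpiSCs than on each of the other 6 arrays, where 230 of the 13151 detected probes met the same limit (1.75%). The same 3 genes stood over 4-fold above each of the 3 wt arrays, as did 317 probes (2.41%). Since the EpiSC signal chose these 3 genes, nothing is read from the count. For each comparison on its own the background was 6.35% of probes against wt ESCs, 6.09% against Gcnf-deficient ESCs, 5.87% and 6.31% against wt and Gcnf-deficient day-12 PGCs, and 8.22% and 6.73% against wt and Gcnf-deficient day-15 PGCs. All 6 comparisons share the EpiSC arrays.

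The question of which neural genes EpiSCs share with Gcnf-deficient cells was put stage by stage. A gene was called shared where the EpiSC mean and the Gcnf-deficient array both lay over 4-fold above the wt array of that stage, with detection in EpiSCs and in the Gcnf-deficient cells. Of the 9 genes, 1 met this (Slc1a3) on day 15, where 136 probes did (1.03%). No gene of the 9 met it in ESCs (63 probes, 0.479%) or on day 12 (23 probes, 0.175%), and over all stages 204 probes did (1.55%). Both sides of the call use the same wt array. By genotype alone, 2.09% of probes detected on either ESC array were over 4-fold higher and 2.85% lower in Gcnf-deficient ESCs, with none of the 9 genes among them. On day 12 the shares were 0.637% higher, with none of the 9, and 1.10% lower, with Zic1 by its measured signals. For Zic1 the Gcnf-deficient signal was not detected and the bound above, at least 1.67-fold, is under the limit, and its log2 difference of -3.44 became -1.24 with an offset of 50 and -0.87 with no background correction. On day 15 they were 2.89% higher, with Slc1a3, and 1.62% lower, with none of the 9. Npy and Slitrk5, the genes with the largest EpiSC excess, were detected in no Gcnf-deficient array, and neither were Sox1, Pax6, Zic1, Fabp7 and Ncam1.

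The Slc1a3 call rests on a signal below detection. On day 15 the measured signals were 7.13 in Gcnf-deficient and 3.07 in wt PGCs, a log2 difference of 4.06, but with the dimmest detected signal on the wt array as the floor the Gcnf-deficient cells were at least 3.36-fold higher, which is under the 4-fold limit. With undetected signals set to that floor no gene of the 9 was shared. On day 12, where both arrays detected it, Gcnf-deficient PGCs were 2.38-fold higher (7.89 against 6.64), and in ESCs 1.14-fold higher (8.86 against 8.67). The Gcnf-deficient array was thus the higher one at each stage, and the ESC step was within the spread of the EpiSC pair.

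Seen along differentiation, Slc1a3 fell short of its ESC level in both genotypes. Wt PGCs were 4.09-fold below wt ESCs on day 12 and at least 9.78-fold below on day 15. Gcnf-deficient PGCs were 1.96-fold and 3.32-fold below Gcnf-deficient ESCs on those days. The Y-linked Eif2s3y was detected in wt day-12 PGCs (11.64) but not in wt ESCs (4.68) or wt day-15 PGCs (2.82), so the wt arrays differ in more than stage, and the part of the cell line in these differences and in the day-12 genotype difference of Slc1a3 was not tested. The array of wt day-15 PGCs was low at many genes that EpiSCs express: 981 probes were over 4-fold higher in EpiSCs than there, against 654 to 771 for the other 5 arrays. Of these 981 probes, 136 (13.9%) were shared with Gcnf-deficient day-15 PGCs. Gja1, a gap junction gene that radial glia use, was among them, with 8.95 in wt and 12.04 in Gcnf-deficient day-15 PGCs and 14.29 and 14.14 in EpiSCs. Of its signals, that of wt day-15 PGCs alone was low. Gja1 gave 12.34 in wt and 11.55 in Gcnf-deficient ESCs, and 11.95 and 12.09 in wt and Gcnf-deficient day-12 PGCs.

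**Figure D3:**
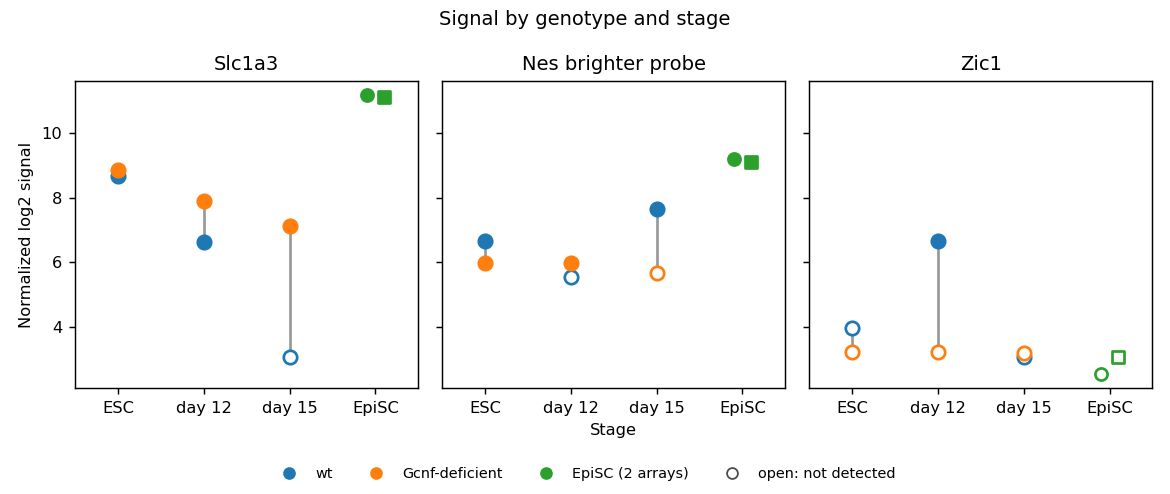
Normalized log2 signal of Slc1a3, the brighter Nes probe and Zic1 by stage, with wt in blue, Gcnf-deficient in orange and the 2 EpiSC arrays in green, each point 1 array, filled where detected and open where not, and grey lines joining the genotypes. The genotypes part on day 15 in opposite directions for Slc1a3 (7.13 against 3.07) and Nes (5.67 against 7.66), and the single filled point of Zic1 is wt day-12 PGCs.

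Nes took the opposite direction to Slc1a3 on day 15. Its brighter probe gave 7.66 in wt and an undetected 5.67 in Gcnf-deficient day-15 PGCs, so the wt array was at least 3.97-fold higher under the RMA background model. The log2 difference of -1.99 became -1.12 with an offset of 50 and -0.89 with no background correction. In ESCs the wt array was 1.60-fold higher, and on day 12 the Gcnf-deficient array was at least 1.08-fold higher. The dimmer probe was detected in neither genotype in ESCs and on day 12, and on day 15 the wt array was at least 1.12-fold higher.

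The genotype difference was tested over the 3 stages with limma, with stage as a block, on the 12717 probes detected on at least 1 of the 6 ESC and PGC arrays. A single probe passed at an adjusted p under 0.05 (0.00786%), that of Olig1, and 1708 did at an unadjusted p under 0.05 (13.4%). The probes of Slc1a3, Nes and Zic1 were among those 12717. The Slc1a3 probe and the brighter Nes probe were detected in both genotypes, and neither passed. Slc1a3 was 1.83 ± 0.71 (SE) higher in log2 in Gcnf-deficient cells, and the difference did not pass (limma, adjusted p = 0.351). It had the same sign at 3 of 3 stages, and without the day-15 arrays the fitted difference was 0.72. Without the day-12 arrays, 1 of which has the Eif2s3y signal, it was 2.12 (limma, adjusted p = 0.411). For the brighter Nes probe the difference was -0.74 ± 0.48 (limma, adjusted p = 0.521). Zic1 and the dimmer Nes probe entered the test through a single wt array each, with the other 5 signals below detection, so their fitted differences of -1.35 ± 0.67 and 0.12 ± 0.44 are given as values without a test. Slc1a3 was among the 6.69% of probes that were higher in Gcnf-deficient cells at an unadjusted p under 0.05. These p-values use signals below detection as they stand and measure the spread over stages with 1 array each.

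Whether the genotype difference itself changed between ESCs and PGCs was tested as an interaction, with days 12 and 15 as 1 class. No probe passed (limma, smallest adjusted p = 0.465), and 766 had an unadjusted p under 0.05 (6.02%). For Slc1a3 the genotype difference was 2.46 ± 2.02 (SE) larger in PGCs than in ESCs (limma, adjusted p = 0.998).

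Feeder fibroblasts also transcribe some glial genes, so the markers of fibroblasts are given beside these values. The list has 19 genes with a probe, of which 15 were detected in wt ESCs, 9 in Gcnf-deficient ESCs, 3 to 5 in each PGC sample, and 3 and 4 in EpiSCs. Their summed linear signal was 25460 in wt ESCs, 2231 in Gcnf-deficient ESCs, 952 to 1468 in PGCs, and 923 and 913 in EpiSCs. Col5a1 (7.70 and 7.56), Dcn (8.09 and 8.02) and Thy1 (7.37 and 7.38) were detected on both EpiSC arrays, Fbln2 on 1 of them, and the other 15 genes, with the collagens Col1a1, Col1a2 and Col3a1 among them, on neither. In the ESCs, where Slc1a3 was close between genotypes at 8.67 and 8.86, the fibroblast median was 8.54 in wt and 5.45 in Gcnf-deficient cells, and the part of feeders in the ESC signals of Slc1a3 and Nes was not tested. In these bulk samples, fewer cells that express a gene and less RNA per cell cannot be told apart.

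**Figure D4:**
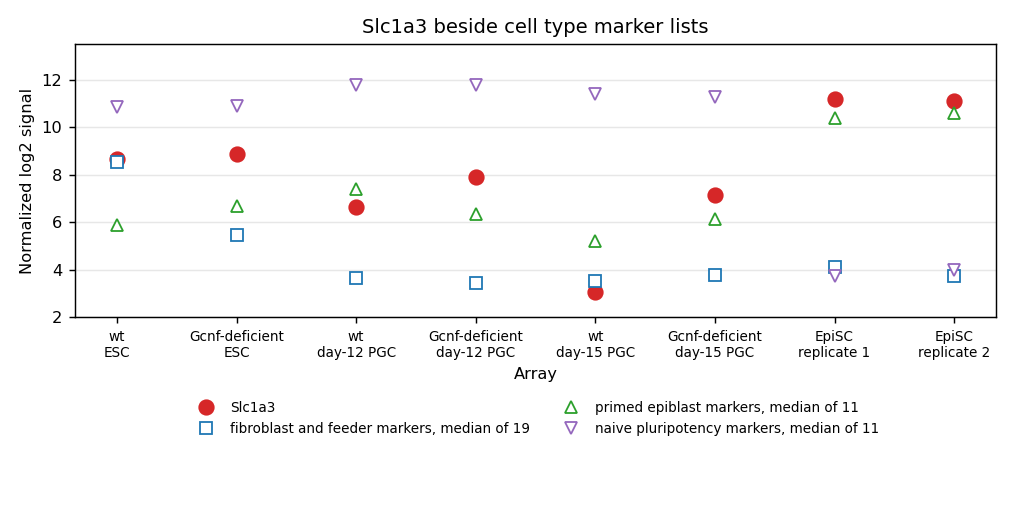
Normalized log2 signal of Slc1a3 (red circles) on the 8 arrays beside the medians of the fibroblast (squares), primed epiblast (triangles pointing up) and naive pluripotency lists (triangles pointing down). The fibroblast median is 8.54 in wt ESCs and 5.45 in Gcnf-deficient ESCs while Slc1a3 is at 8.67 and 8.86, and in EpiSCs Slc1a3 lies above 11 with the fibroblast median at 4.09 and 3.72.

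The surrounding neural genes were read from lists of related function. Apart from the 9 genes, 105 genes with a probe were on these lists, of which 61 were detected on no array, 27 on both EpiSC arrays, and 4 were over 4-fold higher in EpiSCs than on each other array. Among all 16593 genes with a probe, 8973 were detected on at least 1 array, 6768 on both EpiSC arrays, and 174 were over 4-fold higher in EpiSCs. The 4 genes were Pou3f1, a POU factor of the primed epiblast and neural progenitors (12.24 and 11.99 in EpiSCs, 7.21 to 8.60 elsewhere), Nrcam, an adhesion molecule of the Ncam1 group (9.03 and 8.70, not detected elsewhere), Nefm, a neurofilament (7.99 and 8.31, not detected elsewhere), and Fabp5, a relative of Fabp7 (9.61 and 9.24, detected elsewhere in wt day-15 PGCs alone at 5.91). Of the 8 genes on the Ncam1 list, 6 were detected on no array, Ncam1 included, and of the 7 fatty acid binding proteins 4 were, Fabp7 included.

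Among 23 neuroectoderm factors 12 were detected on no array and 6 on both EpiSC arrays, and the 11 detected genes had a median EpiSC difference from the mean of the other arrays of 0.23 in log2, against 0.02 over all detected genes. Otx2, the forebrain and epiblast factor, was shared in ESCs, with 8.46 in wt and 11.70 in Gcnf-deficient ESCs and 11.21 and 11.17 in EpiSCs. It was also high in wt day-12 PGCs, at 11.47, above both EpiSC arrays, and was at 9.87 in wt day-15 PGCs. Gcnf-deficient PGCs gave 11.88 on day 12 and 11.70 on day 15. Gbx2, a hindbrain and naive-state factor, gave 11.92 and 11.57 in EpiSCs and 11.59 in wt ESCs, and 7.97 to 9.98 on the other 5 arrays. Irx3, a factor of the caudal neural plate, gave 8.98 and 8.87 in EpiSCs and 8.56 in wt day-15 PGCs. Other factors of the list were brightest outside EpiSCs. Sox21 was detected on all 6 ESC and PGC arrays, at 6.14 to 8.77, but not in EpiSCs (5.57 and 5.36). Otx1 was detected on 5 of those arrays, up to 7.70 in wt day-15 PGCs, and not in EpiSCs (5.42 and 5.86). En2 gave 7.29 and 6.37 in EpiSCs and 8.23 in wt ESCs. It was detected in Gcnf-deficient ESCs (7.15) and in wt day-12 (7.14) and day-15 PGCs (7.51), but in neither Gcnf-deficient PGC sample (5.03 and 4.58). None of the 11 factors passed the genotype test (limma), and 1 was higher and 4 were lower in Gcnf-deficient cells at an unadjusted p under 0.05, where 595 genes were higher and 593 lower of all 8686 genes tested. Zic1, detected in wt day-12 PGCs alone, is among the 11, and nothing is read from its result.

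Of 17 radial glia and astrocyte genes, Slc1a3 and Nes included, 7 were detected on both EpiSC arrays and 8 on none. The median EpiSC difference was 1.92 over the 9 detected, against 0.02 over all detected genes. Slc1a3, selected on its EpiSC signal, is part of this median, so nothing is read from it. Vim, the filament vimentin, which fibroblasts share, was highest in wt ESCs at 11.39, with EpiSCs at 9.88 and 9.94 and wt day-15 PGCs at 5.99. Ptn, a growth factor, gave 10.26 in wt ESCs, 6.38 in Gcnf-deficient ESCs and 7.12 and 7.29 in EpiSCs. Of these glial genes Slc1a3 and Gja1 were shared, both on day 15, where the wt array was low at each. Of all 16593 genes with a probe, 144 were shared at any stage. None of the glial genes passed the genotype test (limma, 9 tested).

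Of 17 neuronal genes 6 were detected on both EpiSC arrays and 9 on none. The median EpiSC difference was 2.27 over the 8 detected, against 0.02 over all detected genes. Nefm, detected on the EpiSC arrays alone, entered this median through its EpiSC signal, so nothing is read from it. Gap43, a growth cone protein, gave 7.55 and 7.15 in EpiSCs and 6.63 in wt ESCs, and was not detected in the other cells. Ina, an internexin filament, gave 8.76 and 8.84 in EpiSCs and 5.43 to 7.56 elsewhere. Mapt, the gene of tau, went the other way, with 7.18 to 9.22 on the 6 ESC and PGC arrays and no detection in EpiSCs. None of the 7 neuronal genes tested passed the genotype test (limma).

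Of 8 oligodendrocyte genes none was detected on both EpiSC arrays. Olig1, a factor of oligodendrocyte precursors and the single probe past the genotype test, gave 10.58, 11.89 and 11.78 in Gcnf-deficient ESCs, day-12 and day-15 PGCs, and was detected neither in wt cells nor in EpiSCs (3.33 and 4.07). Of 8 neural crest genes 3 were detected on both EpiSC arrays: Twist1 (8.72 and 8.76, against 6.14 to 7.09 elsewhere), Ngfr (8.97 and 9.18, against 6.88 to 7.91) and Ets1 (6.68 and 6.10, against 5.77 to 6.92). Fabp3, the heart form of the fatty acid binding proteins, was lowest in EpiSCs at 9.75 and 9.79, with up to 13.12 in Gcnf-deficient day-12 PGCs.

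**Figure D5:**
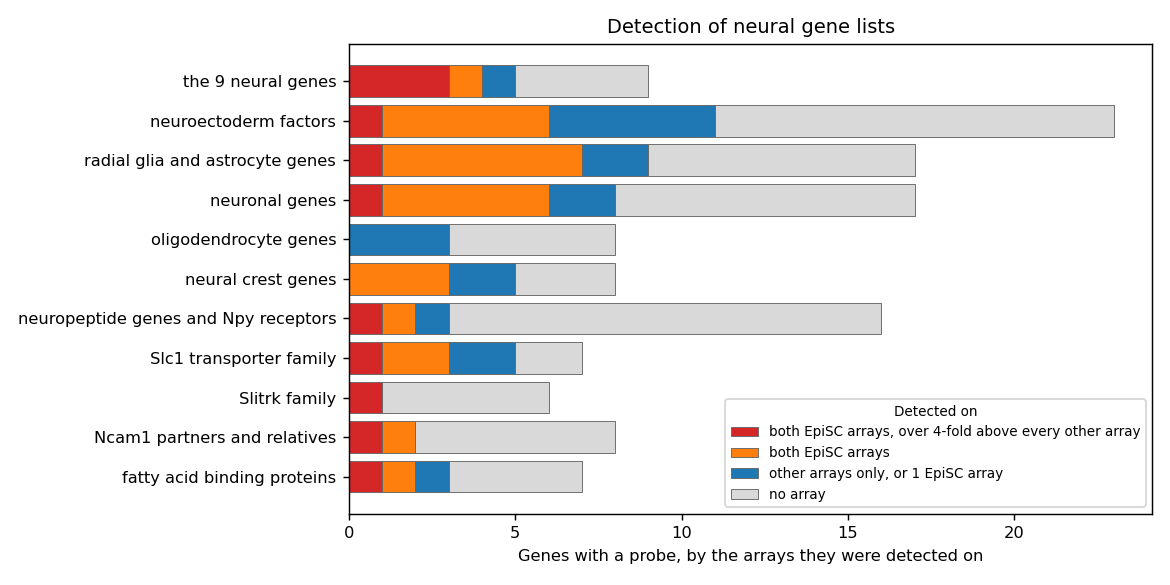
Number of genes with a probe in each neural list by the arrays they were detected on: both EpiSC arrays and over 4-fold above every other array (red), both EpiSC arrays otherwise (orange), other arrays only or 1 EpiSC array (blue), and no array (grey). Most lists hold more grey than red and orange together, as the neuropeptide list with 13 of 16 genes on no array. Among all 16593 genes with a probe, 7620 were detected on no array and 6768 on both EpiSC arrays. The 9 neural genes have 3 in red, which were selected on their EpiSC signal.

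The genes whose pattern over the 7 conditions was most like those of the neural genes detected on both EpiSC arrays were found by Pearson's r among the probes of other genes that spanned over 2 in log2. For Npy they were Zcchc18 (r = 0.989), Ap1s3 and Mapre2, and for the brighter Slitrk5 probe L3mbtl3 (r = 0.997), Arfgap2 and Tmpo. The dimmer Slitrk5 probe was most like Hes6 (r = 0.997), Pou3f1 and Ppp1r14c. Slc1a3 was most like Mrpl58 (r = 0.993), Tmem126a and Slc66a1, and the brighter Nes probe most like Celsr2 (r = 0.988), Moxd1 and Radx. With 7 points, of which EpiSCs are the extreme one, these values describe the pattern only.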

How the data were processed

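The 9 genes and the gene lists were chosen with earlier results of these data known. RNA of 8 samples was hybridized to Illumina MouseRef-8 v2 arrays. The authors used BeadStudio 3.2, and a deposited table gives, without normalization, the signal intensities and detection p-values. The authors' deposited value table holds normalized log2 values (RMA background, quantile) and served as an alternative. The intensities were processed again after the methods: background correction of each array by the RMA model, the log2 transform, and quantile normalization of the 8 arrays together (R 4.3.3, limma 3.58.1). Probes were assigned by platform annotation, with symbols updated through gene identifiers: 23978 of 25697 probes have 1 symbol and 1719 none. In a list, the brightest probe stands for a gene, and 12 neural list genes without a matched probe were not analysed here. All probes of the 9 genes are described. From each other list up to 5 genes with the largest range, and some further genes, are named. Not every gene over 4-fold apart is named.

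With 1 array per condition, differences are values, and folds against undetected signals are bounds. The limit of 4-fold is the one the study used for its map of distances between samples, whereas its scatter plots mark 2-fold changes. Genotype was tested with limma (lmFit, eBayes, two-sided, Benjamini-Hochberg over all 12717 probes, 2 residual degrees of freedom), on 6 arrays with stage as a block, and as an interaction with differentiation. The fits were tested on simulated data. The number of arrays limits the precision. The sources used here do not name the slides. The alternatives were neqc, an offset of 50, no background correction, median scaling, the authors' values, other arrays, filters and limits, an intensity trend, a fit without stage, and fits without 1 stage or 1 EpiSC replicate. The floor for undetected signals was added after seeing the data.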

Additional observations from a re-analysis of the deposited data

Results flagged for a closer look

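On day 15 the difference of the brighter Nes probe from ESCs had opposite signs in the 2 genotypes. From ESCs to day-15 PGCs its log2 signal was higher by 0.99 in wt cells, whereas the difference was -0.32 in Gcnf-deficient cells, where the day-15 signal was not detected. The size of the Gcnf-deficient difference was under the 0.53 of the EpiSC pair. On day 12 the differences from ESCs were -1.14 in wt cells, without detection on day 12, and -0.02 in Gcnf-deficient cells. The difference between these changes was not tested on day 15 alone, since each condition has 1 array. No group had the 4 samples needed to look for a sample far from its group.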

How the results depend on the processing

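Samples could not be paired by replicate number, because the groups share only number 1. The genotype fit instead paired the wt and Gcnf-deficient arrays of each stage through the stage block. The count of the 9 genes over 4-fold higher in EpiSCs than on each other array was 3 under every alternative run except a 2-fold limit, which added Nes and gave 4. The EpiSC signal chose these 3 genes, so nothing is read from this steady count. With no background correction the Slc1a3 excess was 2.01 in log2, just over the limit of 2. The count of genes shared with Gcnf-deficient cells was 1 except with an offset of 50, with no background correction and with undetected signals at the floor, where it was 0. The probes shared at any stage numbered 204 in the report, 116 with neqc, 42 with the offset, 37 with no background correction, 1137 with a 2-fold limit and 122 with the floor. The probes higher in EpiSCs than on each other array numbered 230, and 82 with the offset, 57 with no background correction, 778 with a 2-fold limit and 148 with the floor. Leaving out an EpiSC replicate gave 204 to 215 shared probes and 236 to 252 higher ones. The genotype test passed 1 probe, and 48 with neqc, 80 with the offset, 11 with no background correction, 103 with an intensity trend, 8 without the ESC arrays, 0 without the day-15 arrays, 0 with no stage block and 51 with all 8 arrays in the fit. Neither the Slc1a3 probe nor the brighter Nes probe passed in any of these. The adjusted p of Slc1a3 ranged from 0.117 to 0.706. The interaction passed 0 probes under all 8 alternatives (smallest adjusted p 0.247 to 0.620). The day-15 genotype difference of Slc1a3 ranged from 1.14 with no background correction to 4.26, its ESC difference was -0.062 with median scaling, and the fitted difference of the dimmer Nes probe was -0.49 without the day-12 arrays. The cause was not tested.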
